A study of Homo sapiens with 5 samples.

Results

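The elements described here are 16-base synthetic thyroid hormone response elements whose upstream half-site begins with G in place of A and whose downstream half-site is unaltered. They were selected by sequence alone. Counting from the 5′ end, an element was kept when it had G at position 1, A at position 11, T at position 14 and C at position 15. Positions 7 to 10, the spacer between the half-sites, were free. Of 256 possible spacers, 92 were found with these bases among the 10236 elements of the RNA tables. The upstream half-site of every one of them reads GGGTCA and the downstream half-site reads AGGTCA.

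Thyroid hormone receptors are nuclear receptors that stay on their sites with and without hormone and exchange corepressors for coactivators when T3, the active hormone, is bound. They bind mostly to pairs of AGGTCA half-sites, as a heterodimer whose partner is the retinoid X receptor. Of such pairs the classical arrangement, DR4, is a direct repeat whose half-sites lie 4 bases apart. On such a repeat the retinoid X receptor takes the upstream half-site and the thyroid hormone receptor the downstream one, and the carboxy-terminal extension of the thyroid hormone receptor's DNA-binding domain contacts bases just upstream of its own half-site. The elements studied here thus alter the outer edge of the half-site taken by the partner receptor and leave the hormone receptor's half-site as it is.

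The study placed a pool of such elements in the transcribed part of a STARR-seq reporter plasmid, where the reporter RNA carries the element and counts it, and transfected the pool into HEK293, a human embryonic kidney cell line, in medium without serum using the TransIT-LT1 reagent. RNA libraries came from cells given 600 ng or 1200 ng of plasmid DNA, each without T3 (the groups labelled No T3) and with T3 (With T3), that is, 1 library for each combination and 2 libraries per treatment. Another library held the input DNA. The labels give neither the T3 dose nor its duration, and do not say whether a receptor was supplied with the reporter or whether the libraries came from separate cultures. The 4 RNA libraries held 195254 to 311957 counts. At 600 ng, elements with the G at position 1 and the intact downstream half-site took 1466 counts (0.751% of the library) without T3 and 4102 counts (1.31%) with T3. At 1200 ng they took 1890 counts (0.71%) without T3 and 4442 counts (1.49%) with T3. Without a usable input count, an element's level reflects both how much of its plasmid was present and how strongly it was transcribed.

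The elements that carry the findings differ only in the bases printed in capitals, which are position 1 and the spacer. The first 4 share the outer spacer bases G, C and A and differ at position 9, within the spacer. The next 2 differ at position 9 in another context, but the TCTC element could be tested only because it was high with T3. The seventh is the most abundant of the set.
Spacer GCTA: GggtcaGCTAaggtca
Spacer GCCA: GggtcaGCCAaggtca
Spacer GCGA: GggtcaGCGAaggtca
Spacer GCAA: GggtcaGCAAaggtca
Spacer TCTC: GggtcaTCTCaggtca
Spacer TCAC: GggtcaTCACaggtca
Spacer CACC: GggtcaCACCaggtca

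T3 raised most of the elements that were counted well enough to test. Of the 92 elements, 38 passed the filter on low counts, and these held 94.1% to 97.6% of the set's counts in each library. With T3, 28 of the 38 were higher and 0 were lower, whereas over all 3386 elements tested in the library 20.7% were higher and 6.76% lower. The rise was at least 2-fold for 25 of the 28. An element was called by the quasi-likelihood test of edgeR, with Benjamini-Hochberg adjustment over all 3386 elements, and 28 of the 38 had an unadjusted p under 0.05. Over all elements, 702 were higher and 229 lower, but scaling by library totals gave 551 and 693, and scaling on elements with all 4 scored half-site positions changed gave 1028 and 15. In DESeq2, 20 were higher and 0 lower, against 372 higher and 15 lower of all 3386 elements. However, 10 of the 38 received no adjusted p there. The median log2 change of the 38 was 1.35, against -0.03 over all elements tested, and it was 1.08 at 600 ng and 1.50 at 1200 ng. In 31 of the 38, both libraries with T3 lay above both libraries without it in CPM (counts scaled to library size), a pattern seen in 34% of all elements tested. In the other 7 the treatments overlapped.

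The filter bears on these counts. It keeps an element that is well counted in 1 treatment alone. Of the 38, 3 had fewer than 10 counts in both libraries without T3, those with the spacers TCTC, AATA and TCCC. Elements with at least 10 counts in each of the 4 libraries numbered 33, and 24 of them were higher in a fit to such elements only, in which 560 of all 2940 elements were higher. The 54 elements that were not tested had 1 to 29 counts each over the 4 libraries, with a median of 6. In a fit with no filter, 27 of the 92 were higher and 0 lower, against 667 of all 10236 elements.

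The most abundant element had the spacer CACC. It was found at 965.2 CPM without T3 and 2399 CPM with T3 at 600 ng, and at 842.3 and 2869 CPM at 1200 ng, from counts of 194, 668, 235 and 753 in that order. It ranked 25th of the 10236 listed elements by mean count. Its log2 change was 1.54 ± 0.17 (SE, 2 libraries per treatment; adjusted p = 1.21e-06, edgeR), so the libraries with T3 stood apart from those without. Each SE given here is derived from the edgeR test, which pools most of its spread across elements rather than taking it from the libraries of that element.

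The second most abundant, with the spacer TCAC, started nearly as high and moved far less. It had 756.3 and 931.9 CPM without T3 at 600 ng and 1200 ng, and 1207 and 1269 CPM with T3. Its log2 change was 0.55 ± 0.16 (adjusted p = 0.0145, edgeR). The treatments did not overlap, but it did not pass when scaled by library totals (0.30 on the log2 scale, adjusted p = 0.156, edgeR) or in DESeq2 (adjusted p = 0.2). Leaving out the 600 ng library without T3 also ended the call (adjusted p = 0.0641, edgeR), as did leaving out the 1200 ng library with T3 (adjusted p = 0.095, edgeR).

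The next 3 by abundance also rose. The element with spacer ATCC went from 422.9 to 969.8 CPM at 600 ng and from 344.1 to 1288 CPM at 1200 ng, a log2 change of 1.56 ± 0.20 (adjusted p = 3.82e-06, edgeR). Spacer AAGA gave 273.7 and 528 CPM at 600 ng and 415.8 and 804 CPM at 1200 ng, a log2 change of 0.95 ± 0.20 (adjusted p = 0.00106, edgeR). Without the with T3 library at 1200 ng this change was 0.58 and no longer passed (adjusted p = 0.14, edgeR). Spacer AACC gave 159.2 and 675.3 CPM at 600 ng and 243.7 and 659.2 CPM at 1200 ng, a log2 change of 1.72 ± 0.23 (adjusted p = 9.38e-06, edgeR). In all 3, each library with T3 was above each library without it.

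The 10 largest rises all had a pyrimidine at position 9. The largest was that of spacer TCTC, whose 3 and 2 counts without T3 at 600 ng and 1200 ng became 30 and 29 counts with T3. Its log2 change of 3.31 ± 0.59 (adjusted p = 0.000188, edgeR) therefore rests on 5 counts without T3, and the element could be tested only because it was high with T3. Spacer GCCA, with 20 and 21 counts without T3 and 114 and 97 with T3, rose by 2.16 ± 0.30, which is 4.48-fold (adjusted p = 1.03e-05, edgeR). Spacer CCCG had 12 and 22 counts without T3 and 94 and 71 with T3, a log2 change of 2.09 ± 0.33. Spacer AATG had 11 and 24 counts without T3 and 75 and 87 with T3, a change of 2.08 ± 0.32.

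Spacer CCTG, the best counted of the 10, had 23 and 40 counts without T3 and 153 and 119 with T3, and rose by 1.93 ± 0.27 on the log2 scale. Spacer GCTA had 16 and 28 counts without T3 against 92 and 91 with T3, a log2 change of 1.90 ± 0.30. Spacer TTCA had 18 and 30 against 87 and 111, a change of 1.90 ± 0.29. These 3 changes lay within 1 SE of one another. Spacer CATA had 15 and 22 counts without T3 and 70 and 77 with T3 (1.82 ± 0.32). Spacer AATA had 8 and 9 against 29 and 37 (1.77 ± 0.45), and its call was lost without the with T3 library at 1200 ng (adjusted p = 0.067, edgeR). Spacer CACA had 11 and 36 against 80 and 88 (1.76 ± 0.32), so its level without T3 differed more between the DNA amounts than that of the other 9. The treatments did not overlap in any of the 10. The filter favoured that order in the TCTC and AATA elements, which had fewer than 10 counts in both libraries without T3. The remaining elements called higher had log2 changes of 0.55 to 1.72.

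Most elements with a pyrimidine at position 9 rose and most with a purine did not pass. Of 26 tested elements with T or C there, 24 were higher, with a median log2 change of 1.60 and a range of 0.73 to 3.31. Of 12 with A or G there, 4 were higher, with a median of 0.20 and a range of -0.12 to 1.51. In the library as a whole, 31.9% of 1998 tested elements with a pyrimidine at position 9 were higher and 4.61% of 1388 with a purine. With A at position 1 and the intact downstream half-site, the shares were 97.1% of 35 and 21.4% of 28. With C at position 1 they were 77.4% of 31 and 0% of 20, and with T 36% of 25 and 0% of 21. By base, 14 of 14 elements with T at position 9 were higher (median log2 change 1.60), 10 of 12 with C (1.61), 3 of 5 with G (0.95) and 1 of 7 with A (0.03). Over all elements tested the shares called higher were 33.9% for T, 30% for C, 7.39% for G and 2.83% for A. The TCTC and AATA elements, with T at position 9, had fewer than 10 counts in both libraries without T3. So did the TCCC element, with C there, and for these elements the filter favoured a rise.

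Together the 26 elements with a pyrimidine at position 9 had 4135 CPM without T3 and 10963 CPM with T3 at 600 ng, a ratio of 2.65, and 3746 and 12503 CPM at 1200 ng, a ratio of 3.34. The 12 with a purine had 2727 and 3412 CPM at 600 ng, a ratio of 1.25, and 2731 and 3887 CPM at 1200 ng, a ratio of 1.42.

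The clearest comparison was among the 4 elements whose spacers read G, C, any base and A. With C or T at position 9 the element rose, by 2.16 and 1.90 on the log2 scale (above). With G it was 517.5 CPM without T3 and 449 CPM with T3 at 600 ng, and 383.5 and 468.7 CPM at 1200 ng, a log2 change of 0.04 ± 0.21 (adjusted p = 0.902, edgeR). With A it was 189.1 and 165.2 CPM at 600 ng and 132.6 and 129.6 CPM at 1200 ng, a change of -0.12 ± 0.32 (adjusted p = 0.824, edgeR). The treatments overlapped for the G element but not for either pyrimidine element, and for the A element 1 value with T3 lay between those without it and the other just below them.

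The difference in T3 response between elements that differ at a single position was tested directly. For each such pair, edgeR compared the change of one element with that of the other within the same libraries, which removes the scaling between libraries. Over the whole table, 647 pairs had a pyrimidine in one element and a purine in the other at position 9, and 32.3% of them passed the threshold in either direction. The set held 14 such pairs, made from 22 elements, so the pairs are not independent of each other. In all 14 the pyrimidine element had the larger log2 change, as it did in 568 of the 647 pairs of the whole table. The TCTC, AATA and TCCC elements, on the pyrimidine side of pairs in the set, had fewer than 10 counts in both libraries without T3. For them a rise with T3 bore on being tested. The median difference was 1.15 in the set and 0.74 in the whole table. Of the 14, 7 passed, with differences of 1.42 to 2.27 on the log2 scale in 6 of them and a larger one for the rare TCTC element. The pyrimidine was ahead in 13 of the 14 at 600 ng and in 14 at 1200 ng.

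Of the 7 pairs, 4 came from the G, C, any base, A series. The GCCA element exceeded the GCAA element by 2.27 ± 0.44 (adjusted p = 5.02e-05, edgeR) and the GCGA element by 2.12 ± 0.37 (adjusted p = 7.79e-06, edgeR). The GCTA element exceeded the same elements by 2.02 ± 0.45 and 1.84 ± 0.37 (adjusted p = 0.000354 and 8.26e-05, edgeR). A further pair set TCTC against TCAC, with a difference of 2.77 ± 0.57 (adjusted p = 0.000121, edgeR). However, the TCTC element passed the filter only through its libraries with T3, so a large response was a condition of its being tested. The TCCC element, with C at position 9 and 5 and 8 counts without T3, exceeded the TCAC element by 0.35 ± 0.52. That pair did not pass (adjusted p = 0.705, edgeR), and the TCCC element too passed the filter only through its libraries with T3. With at least 10 counts for both elements in each library, 9 pairs remained. The pyrimidine element was ahead in all 9, and 6 passed. The ACCC element exceeded the ACAC element by 1.61 ± 0.36, and the GATA element the GAAA element by 1.42 ± 0.40 (adjusted p = 0.000335 and 0.00417, edgeR). The ACAC element was itself well counted, with 417.9 and 370 CPM without and with T3 at 600 ng and 333.3 and 392.5 CPM at 1200 ng.

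The calls changed when a library was left out. With either library without T3 left out, 0 pairs passed in the set and 0 of 714 or more in the whole table, while the median difference in the set was 1.40 and 1.18 on the log2 scale, against 1.15 with all libraries. Without the with T3 library at 600 ng 7 passed, and without that at 1200 ng 4 passed.

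Among the 7 pairs that did not pass, 2 had differences near 0. The CACC element exceeded the CAGC element by 0.06 ± 0.41, with a 95% interval of -0.75 to 0.87, and the GCCC element the GCGC element by 0.08 ± 0.52, with an interval of -0.96 to 1.12. Both elements with G in these pairs have C at position 10 and were called higher. Over all tested elements with a purine at position 9, 4.17% with a pyrimidine at position 10 were higher and 5.24% with a purine there. Spacer CAGC had 11 and 17 counts without T3 and 39 and 50 with T3, a log2 change of 1.51 ± 0.37 (adjusted p = 0.00406, edgeR). Spacer GCGC had 12 and 13 counts without T3 and 32 and 34 with T3, a change of 1.21 ± 0.41 (adjusted p = 0.0312, edgeR).

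The other elements with a purine at position 9 that rose were those with spacers AAGA and TCAC, described above. The GCGA element, which differs from the GCGC element only at position 10, was lower in its T3 response by -1.16 ± 0.47 (unadjusted p = 0.0142, adjusted p = 0.22, edgeR), a difference that did not pass. Each of the 4 risen elements with a purine at position 9 lost its call in at least 1 alternative analysis, as did 4 of the 24 with a pyrimidine.

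The remaining elements with a purine at position 9 did not pass. Spacer GAAA gave 36 and 59 counts without T3 and 51 and 49 with T3, a log2 change of -0.08 ± 0.29. Spacer TAAC gave 19 and 16 against 23 and 24, a change of 0.23 ± 0.42. Spacer TAAA gave 19 and 15 against 10 and 28, so that its libraries with T3 lay on either side of those without (-0.07 ± 0.50). Spacer ATAC, with 5 and 11 counts against 14 and 15, had a change of 0.73 ± 0.56 (adjusted p = 0.348, edgeR). At these counts, a change of 1 on the log2 scale was not detectable in the ATAC element. Spacer ACGA, with G at position 9, had 13 and 18 counts against 24 and 16 (0.17 ± 0.44).

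Only 2 tested elements with a pyrimidine at position 9 were not called, and both were rare. Spacer TCCC had 5 and 8 counts without T3 and 13 and 14 with T3, a log2 change of 0.89 ± 0.59 (adjusted p = 0.277, edgeR). Spacer ACCA had 12 and 20 against 23 and 36, a change of 0.73 ± 0.40 (adjusted p = 0.182, edgeR). In both, each library with T3 was above each without. The TCCC element passed the filter only through its libraries with T3, so for it that order was a condition of being tested. Scaling on elements with all 4 scored half-site positions changed made the ACCA element pass (a change of 1.12, adjusted p = 0.0409, edgeR).

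Pairs that differed at another spacer position were compared in the same way. At position 7, 5 pairs set T against another base and 0 passed (0 had an unadjusted p under 0.05), with 0.325% of 308 pairs passing in the whole table. At position 8, 0 of 13 pairs passed (1 at an unadjusted p under 0.05), with 0.693% of 866 in the whole table. At position 10, 0 of 6 pairs of purine against pyrimidine passed (2 at an unadjusted p under 0.05), with 2.26% of 576 in the whole table. The likelihood ratio test in edgeR passed 0 pairs in the set at each of these positions too. The largest of these differences was that of spacer GCCA over spacer GTCA, 1.22 ± 0.47 on the log2 scale, with an interval of 0.31 to 2.14 (adjusted p = 0.37, edgeR). The median SE of these comparisons was 0.46 to 0.50, so a difference under about 1 on the log2 scale was not detectable in most pairs.

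Counts by base at these positions are given with the bases at position 9 that went with them. All 9 tested elements with C at position 7 were higher, and 8 of the 9 have a pyrimidine at position 9 and 0 have A there. Over all elements tested 19.1% with C at position 7 were higher. Of 7 with T at position 7, 4 were higher, and 3 of the 7 have A at position 9. Over all elements T was the base at position 7 with the highest share, 27.5%. Among tested elements with A at position 1 and the intact downstream half-site, C at position 7 had the highest share, 69.6%, against 63.6% for T. All 4 tested elements with G at position 10 were higher, with a median log2 change of 2.01, and all 4 have a pyrimidine at position 9. Over all elements 25.1% with G at position 10 were higher. Among elements with a pyrimidine at position 9, those followed by a purine (14 of 15 higher, median 1.77) and those followed by a pyrimidine (10 of 11 higher, median 1.54) were called at nearly the same rate. Over all elements tested, 37.2% of the former kind and 28% of the latter were higher.

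With 0, 1, 2, 3 and 4 G or C bases in the spacer, 2 of 3, 6 of 9, 12 of 16, 5 of 7 and 3 of 3 tested elements were higher. Over all elements tested the shares were 17.9%, 21.2%, 20.7%, 20.7% and 22.1%, nearly flat. Of 5 elements with CG in the spacer 3 were higher, against 18.2% of 446 such elements in the whole table. Of 4 spacers made only of pyrimidines 3 were higher, against 33.1% of 332 over all elements. Of 2 made only of purines 1 was, against 5.66% of 106.

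Position 1, where the upstream half-site begins, was then compared with the spacer held constant. Elements with A at position 1 and the same downstream half-site are exact DR4 elements. Among all tested elements with the intact downstream half-site, 28 of 38 with G at position 1 were higher (median log2 change 1.35), 40 of 63 with A (1.28), 24 of 51 with C (0.80) and 9 of 46 with T (0.06). These groups hold different spacers, so only pairs with the same spacer were tested.

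Against A at position 1, 14 spacers could be compared, and the G element had the larger T3 response in 7 and the smaller in 7. The median difference was 0.02 on the log2 scale, and -0.18 to 0.16 with 1 library left out. In the whole table the G element was ahead in 32 pairs and behind in 84, with a median difference of -0.39. Of the 14, 1 passed, against 5.17% of 116 pairs of G against A at position 1 over all elements. Of the 14 spacers, 12 were higher with G and 13 with A. The 11 that were higher with both made up 91.7% of the first and 84.6% of the second.

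The pair that passed had the spacer GATA and is printed with its C counterpart, as it is the spacer at which the first base went with the largest difference among the 14.
G at position 1: GggtcaGATAaggtca
A at position 1: AggtcaGATAaggtca
C at position 1: CggtcaGATAaggtca

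With A at position 1, this element had 67 and 59 counts without T3, and 1324 and 1506 with T3, at 600 ng and 1200 ng. Its log2 change of 4.30 was the largest of all 3386 elements tested. With G the element had 29 and 35 counts without T3 and 79 and 105 with T3, a change of 1.35 ± 0.29. The median change of the 38 tested elements with G was also 1.35. The difference was -2.98 ± 0.29 on the log2 scale (adjusted p = 5.37e-16, edgeR), and it was -2.86 at 600 ng and -3.09 at 1200 ng. The G element's levels without T3, 144.3 and 125.5 CPM, lay below those of the A element, 333.4 and 211.5 CPM, and the gap with T3 was far wider. With T3 the A element had 15.4 times the count of the G element. With C the counts were 1 and 3 without T3 and 22 and 24 with T3, and the G element's response was smaller by -1.94 ± 0.78 (adjusted p = 0.116, edgeR), which did not pass.

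For the other 13 spacers the intervals of the difference between G and A at position 1 were of unequal width. At spacer CACC the difference was 0.11 ± 0.20, with a 95% interval of -0.28 to 0.49, so a difference as large as that at GATA lies outside it. The A element there had 75 and 100 counts without T3 and 263 and 273 with T3. At spacer TCAC the difference was -0.14 ± 0.26 (interval -0.64 to 0.37), and at spacer AAGA it was 0.11 ± 0.26 (interval -0.41 to 0.63). At spacer TCTC the G element was ahead by 1.57 ± 0.75 (interval 0.07 to 3.06, unadjusted p = 0.0401, adjusted p = 0.258, edgeR), on 5 counts without T3 for the G element. At spacer CTTC, where the A element held 3136 counts with T3 at 600 ng against 157 for the G element, the difference was 0.11 ± 0.51.

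Against C at position 1, 0 of 11 spacers passed, with 3 at an unadjusted p under 0.05 and 2.26% of 133 pairs passing in the whole table. The likelihood ratio test also passed 0. In the whole table the G element was ahead in 113 of the 133 pairs, with a median difference of 0.54. In the set it was ahead at 9 of the 11, with a median difference of 0.26. Without the 1200 ng library lacking T3 it was ahead at 6 of 13, with a median of -0.02, and without the 1200 ng library with T3 the median was 0.10, so no direction is read from these pairs. At spacer CACC the C element was the more abundant without T3 (1075 and 1072 CPM against 965.2 and 842.3 CPM), and the difference in response was 0.47 ± 0.38 with an interval of -0.28 to 1.22. Of the 11 spacers, 10 were higher with G and 9 with C. The 8 that were higher with both made up 80% of the first and 88.9% of the second.

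Against T at position 1 the G element had the larger T3 response at all 12 spacers compared, with a median difference of 0.93 on the log2 scale. In the whole table G was ahead of T at position 1 in 77 of 91 pairs, with a median difference of 0.74. Without the 1200 ng library lacking T3, the G element was ahead at 11 of 16 spacers of the set. Of the 12, 2 passed, against 13.2% of 91 such pairs in the whole table. The 2 spacers are printed in both forms.
Spacer GCCA, G at position 1: GggtcaGCCAaggtca
Spacer GCCA, T at position 1: TggtcaGCCAaggtca
Spacer TCAC, G at position 1: GggtcaTCACaggtca
Spacer TCAC, T at position 1: TggtcaTCACaggtca

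At spacer GCCA the T element was abundant and did not pass, with 221 and 251 counts without T3 and 284 and 293 with T3, a log2 change of 0.10. The G element's response exceeded it by 2.06 ± 0.27 (adjusted p = 1.32e-09, edgeR), and the difference was 2.11 at 600 ng and 1.93 at 1200 ng. At spacer TCAC the T element had 111 and 163 counts without T3 and 120 and 117 with T3, a change of -0.37, and the difference was 0.93 ± 0.16 (adjusted p = 1.05e-06, edgeR). This second call was lost with the likelihood ratio test of edgeR (adjusted p = 0.0548) and with any 1 RNA library left out (adjusted p = 0.0518 to 0.262, edgeR). Of the 12 spacers, 9 were higher with G and 3 with T. The 3 that were higher with both made up 33.3% of the first and 100% of the second.

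Each element was also set beside its most abundant neighbour, the element 1 base away with the highest count with T3. Of the 38 tested elements, 9 had a neighbour with at least 10 times their count with T3, and 4 of these were among the 28 higher. The 4 had the spacers TCTC (12.5 times, a neighbour that rose by 1.37), CTTC (15.1 times, 1.52), GATA (15.4 times, 4.30) and CAGC (16 times, 1.54). Those not called had the spacers TCCC (60.3 times, 1.51), ATAC (21 times, 1.56), TAAC (14.2 times, 0.55), GCAA (11.8 times, -0.23) and ACGA (11.6 times, 0.57). The count with T3 exceeded that of every neighbour in 5 of the 28, the CACC and TCAC elements among them. The GCGC element's most abundant neighbour, the GCGA element, had 3.76 times its count with T3 and a log2 change of 0.04. The part of such neighbours in the responses was not tested.

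The amount of DNA transfected moved 0 of the 38 elements past the threshold in the quasi-likelihood test of edgeR, with 1 at an unadjusted p under 0.05, and 0% of all 3386 elements tested passed (143 at an unadjusted p under 0.05). DESeq2 gave 0 at both. The log2 changes from 600 ng to 1200 ng ran from -0.53 to 0.60, with a median of 0.10. The T3 effect had the same sign at both amounts in 32 of the 38 elements. It did so in all 28 that were called, which the call itself favours.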

How the data were processed

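Each deposited RNA table listed 16-base elements with a raw count for each, per the file headers. For trimming, matching and counting, the method was not given in the sources used here. Molecular identifiers are not mentioned, so a count need not be an independent molecule. The lists hold only elements with at least 1 count in the no T3 library at 1200 ng, which leaves out elements seen only with T3. The 4 RNA libraries were fitted together in edgeR 4.0.16 (R 4.3.3) with TMM scaling, filterByExpr on treatment, DNA amount as a term, a robust quasi-likelihood fit with 1 residual degree of freedom, and Benjamini-Hochberg adjustment at 0.05. Changes at a single DNA amount used a pseudocount of 1. For pairs of elements the fit held library, element and element by DNA amount, and tested element by T3, where both elements passed the filter. SEs were derived from the test. The labels do not state separate cultures, so p-values measure only the spread between these libraries, and elements are not replicates. Deposited input counts were not used: their column runs in descending order in 4 blocks of 2464, 1194, 2942 and 2529 lines, as many as there are sequences whose base 15 is T, then G, then C, then A, and over 6702 shared elements it had a Spearman correlation of 0.132 with the summed RNA count, a description across elements. Named elements were the 10 largest rises, the 5 highest mean counts and the largest differences per comparison; the spacer CAGG, also chosen, was not among the listed elements, and further elements were named after their values were seen. The elements and lists were chosen with earlier results of these data known. The fits were tested on simulated data. Alternatives were other scalings and filters, the likelihood ratio test, DESeq2 1.42.0, fits without DNA amount, and leaving out each library.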

Additional observations from a re-analysis of the deposited data

Results flagged for a closer look

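In 6 tested elements, none of them called, the T3 change had opposite signs at 600 ng and 1200 ng. On the log2 scale it was -0.186 and 0.638 for spacer TAAC and 0.394 and -0.0768 for spacer ACGA. It was -0.203 and 0.287 for spacer GCGA, and -0.174 and 0.233 for spacer ACAC. For spacer TAAA it was -1.31 and 0.939, and for spacer GAAA 0.0317 and -0.176. Each value rests on 1 library with T3 and 1 without, and the difference between the amounts was not tested. All 6 have a purine at position 9, a group whose median log2 change was only 0.20, against 1.60 with a pyrimidine there.

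The input list held 34 elements of this kind that are not on the RNA lists.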

How the results depend on the processing

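The number of elements called higher was 26 with RLE factors, 25 with library totals, 29 with scaling on elements changed at all 4 scored positions, 27 with no filter, 24 with at least 10 counts in every library, 28 in the likelihood ratio test, 20 in DESeq2 and 22 to 27 with 1 library left out. It was 28 without the replicate block of DNA amount, and 0 were lower in every alternative run. Of the 28, 20 kept their call in every alternative that tested them, all with a pyrimidine at position 9. The median log2 change was 1.74 with scaling on elements changed at all 4 scored positions and 0.84 with no filter. Over all elements the median was -0.03, and it was 0.35 with the same scaling and -0.28 with library totals. Of all 3386 elements, 582 were higher and 135 lower with RLE factors, against 702 and 229 in the main fit. The likelihood ratio test gave 737 and 295, the fit without the replicate block 724 and 273, and DESeq2 372 and 15. Pairs of G against T at position 1 that passed numbered 5 without the replicate block, 5 with at least 10 counts for both elements, and 1 to 3 with 1 library left out. Pairs of G against C numbered 0 to 1, and pyrimidine against purine pairs at position 9 numbered 0 to 7, with 1 library left out. The cause of these changes was not tested. Among the 10 elements not called, 7 changed sign in at least 1 alternative; 0 of the 28 called elements and 0 of the called pairs did. With 2 libraries per treatment and a median of 15.5 counts per element over the 4 libraries, most of the 92 elements were too rare to test.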

Other observations

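The 33 untested elements with a pyrimidine at position 9 together had 57 and 55 counts without T3 at 600 ng and 1200 ng, and 84 and 106 with T3. The ratio of their CPM with T3 to that without was 1.06 and 2.05. The 21 untested elements with a purine there had 30 and 28 counts without T3 and 16 and 35 with T3, ratios of 0.385 and 1.33. Of the 92 elements, 71 were also on the input list, and the other 21 had 89 RNA counts in all.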
